A study of Mus musculus with 12 samples.

Results

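Semaphorins are guidance ligands, plexins are their main receptors and neuropilins are co-receptors for the secreted ligands. The members described here are the 31 genes, of 23226 features with a single gene name, whose symbols belong to semaphorin classes 3 to 7, to the plexins or to the neuropilins. They comprise 20 semaphorins, 9 plexins and both neuropilins. The RNA came from 3 lines of mouse small cell lung cancer, all labelled Trp53-/-;Rb1-/- and grown as floating spheres in RPMI with serum. In 16T and KP1, both labelled Nfib high, cells with an shRNA against Nfib were compared with cells carrying a control shRNA (shLuc in the titles). In KP22, labelled Nfib low, cells with a vector for Nfib cDNA were compared with cells carrying an empty vector. Each of the 6 groups held 2 samples, 12 in all, and nothing says that they were separate cultures, so p-values measure only the spread between these samples, which may be technical. The protein made from Nfib is a nuclear factor I transcription factor, and the comparisons ask which transcripts moved when it was lowered or raised.

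A semaphorin binds through its sema domain to a plexin on another cell or on the same cell. The plexin's cytoplasmic part then acts on small GTPases, which remodels actin and integrin adhesion, so that the growing axon or migrating cell is usually repelled and sometimes attracted. Class 3 semaphorins are secreted and mostly need a neuropilin to reach an A plexin, classes 4, 5 and 6 span the membrane, and class 7 is held by a lipid anchor. The system is best known from axon guidance and blood vessel patterning, and neuroendocrine lung tumor cells share many genes with neurons.

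The files gave the authors' own comparisons and no values per sample, so depth and how many samples moved each way are unknown. Below, rose and fell mean that the authors' adjusted p was below 0.05, and ± gives the standard error (SE) of the log2 fold change. The headings do not state a direction, which was read from Nfib: in the authors' deposited table it was at -1.08 ± 0.035 in 16T, -1.32 ± 0.035 in KP1 and, with the cDNA, 1.80 ± 0.036 in KP22. All 11 neuroendocrine markers looked up had mean normalized counts over the libraries of at least 298 in the authors' deposited table. Of these 11, 3 rose and 4 fell in 16T, 5 rose and 4 fell in KP1, and 4 rose and 6 fell in KP22, where Chgb, a granule protein, had -4.27 ± 0.059 and Isl1, a LIM homeodomain factor, had 4.94 ± 0.24 in the authors' deposited table. Of the other cell types' markers, 3 of 8 endothelial, 4 of 8 fibroblast and 4 of 8 leukocyte markers had a mean under 10, and Emcn, Col3a1, Acta2 and Cd3e were listed at 0. The most abundant of these lists had means of 2353 (Vwf), 2220 (Pdgfra) and 494 (Cd79a), and the 6 neuron markers had 577 or more, in the authors' deposited table. Of the fibroblast markers 3 rose and 0 fell of 4 tested in 16T, among them Pdgfrb by 2.01 ± 0.38, 0 rose and 1 fell of 4 in KP1, and 0 rose and 1 fell of 6 in KP22, in the authors' deposited table. The leukocyte marker called in each comparison was Cd79a, with -0.63 ± 0.14 in 16T, -0.63 ± 0.15 in KP1 and 1.05 ± 0.21 for KP22 in the authors' deposited table. Of the neuron markers, 0 rose and 3 fell in 16T, 0 rose and 3 fell in KP1, and 3 rose and 1 fell in KP22. Beside these marker counts, 45.3% of all tested genes were called in 16T, 37.2% in KP1 and 38.4% in KP22. The part of the marker shifts in the members' values was not tested. The lines differ in more than Nfib, and knockdown and cDNA were never used in the same line, so a difference between the knockdown lines and KP22 cannot be told apart from a difference between lines.

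All 31 members had counts in the mean over the libraries and an adjusted p in each comparison. Their mean normalized counts over the libraries ran from 36.9 (Sema7a) to 24111 (Plxnb2) in the authors' deposited table, and 5 members were under 100. Per kb of exon, the level spanned 779-fold. Plxnb2 stood highest at 3710 counts per kb, followed by Plxnb1 at 1466, Plxna3 at 1127, Sema4c at 1038 and Plxna2 at 984. At the low end were Sema3d at 10.1, Plxna4 at 6.96 and Sema5a at 4.76 counts per kb. The median member had 277 counts per kb, against 528 for all genes tested in 16T. Semaphorins of class 4 had a median of 331 counts per kb, those of class 6 had 234 and those of class 3 had 123. Both neuropilins were in the middle of the order, Nrp1 at 364 and Nrp2 at 233 counts per kb. These levels are means over all 3 lines, so which line holds most of a transcript, or whether every line holds it, is not shown by them.

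**Figure D1:**
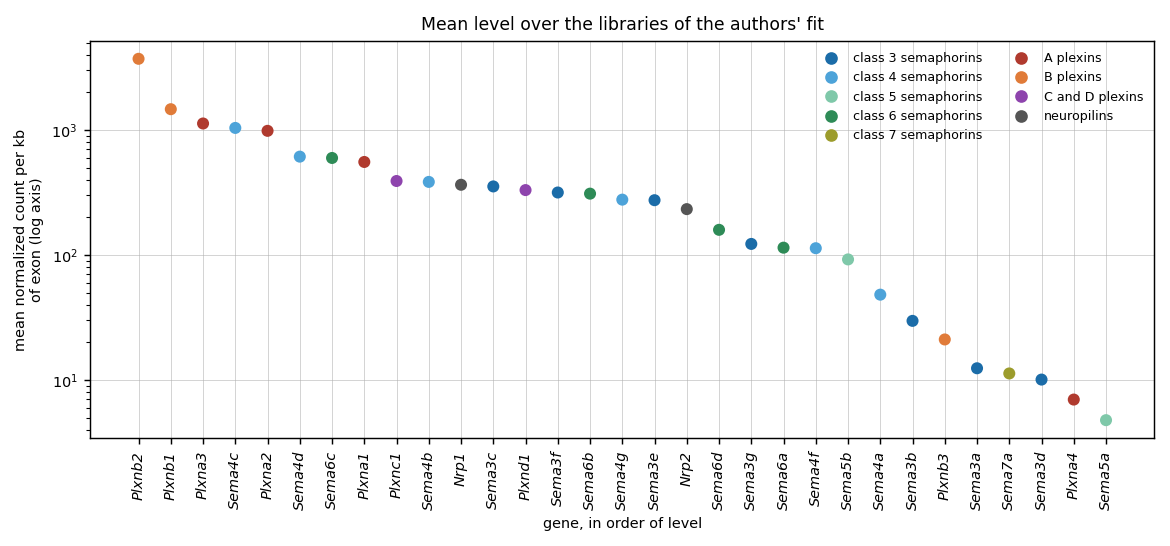
Mean normalized count per kb of exon on a log axis for each of the 31 members, in order of level and colored by class. Plexins of the A and B groups take 4 of the first 5 places, from 3710 counts per kb for Plxnb2 to 984 for Plxna2, while Sema5a is last at 4.76.

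Lowering or raising Nfib came with changes in most of the family, in both directions. In 16T with the Nfib shRNA 8 members rose and 10 fell, so 18 of 31 (58.1%) were called, where 45.3% of all tested genes were (20% rose and 25.3% fell). In KP1 with the Nfib shRNA 11 rose and 8 fell, 19 in all (61.3%), beside 37.2% of all tested genes (17.6% rose and 19.6% fell). In KP22 with Nfib cDNA 11 rose and 13 fell, 24 in all (77.4%), beside 38.4% of all tested genes (19.5% rose and 18.8% fell). Among tested genes with a mean at least that of the lowest member, the shares called were 47.9% in 16T, 39.2% in KP1 and 47.2% in KP22. The median size of the log2 fold change was 0.34 over the members against 0.24 over all tested genes in 16T, 0.39 against 0.19 in KP1, and 0.64 against 0.25 in KP22. The signed medians were small, at -0.15 in 16T, 0.13 in KP1 and -0.11 in KP22 for the members, against -0.05, -0.02 and 0.04 for all tested genes. In bulk RNA a lower value can come from fewer cells that carry a transcript or from less of it per cell, and these cannot be told apart. Called log2 fold changes of size 1 or more were found for 7 members in 16T, 3 in KP1 and 10 in KP22, where 6.36%, 5.96% and 8.07% of all tested genes had them. A test by the authors against a size of 0.5 called 5, 2 and 10 members, beside 5.25%, 4.58% and 7.66% of all genes with that test.

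**Figure D2:**
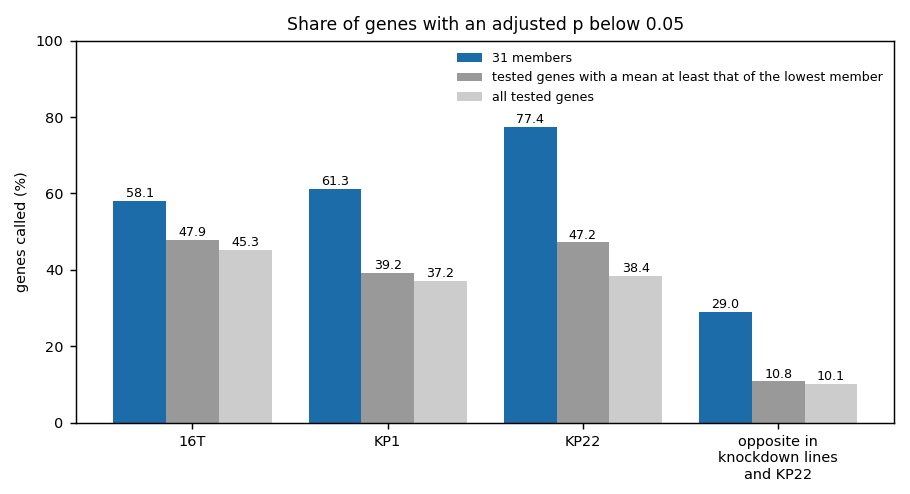
Share of genes with an adjusted p below 0.05, in percent, for the 31 members, for tested genes with a mean at least that of the lowest member and for all tested genes. The members' bars are 58.1%, 61.3% and 77.4% in 16T, KP1 and KP22, above both gene sets in each line; the last bars give the pattern with opposite signs in the knockdown lines and KP22.

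By role, of 20 semaphorins 4 rose and 6 fell in 16T (50% called), 5 rose and 5 fell in KP1 (50%), and 9 rose and 8 fell in KP22 (85%). Of 9 plexins, 3 rose and 4 fell in 16T (77.8%), 5 rose and 3 fell in KP1 (88.9%), and 2 rose and 4 fell in KP22 (66.7%). These shares stand beside 45.3%, 37.2% and 38.4% of all tested genes in 16T, KP1 and KP22, and the ligands' share in 16T is near that background. Whether the shares differ between ligands and receptors, or between lines, was not tested. Sema3a, Sema4b and Sema5b were called in none of the 3 comparisons, 6 members in 1, 11 in 2 and 11 in all 3. So 28 of 31 (90.3%) were called at least once, beside 71.5% of all genes tested in the 3 comparisons. A call in all 3 was found for 35.5% of the members, beside 15.1% of all genes tested in the 3 comparisons.

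**Figure D3:**
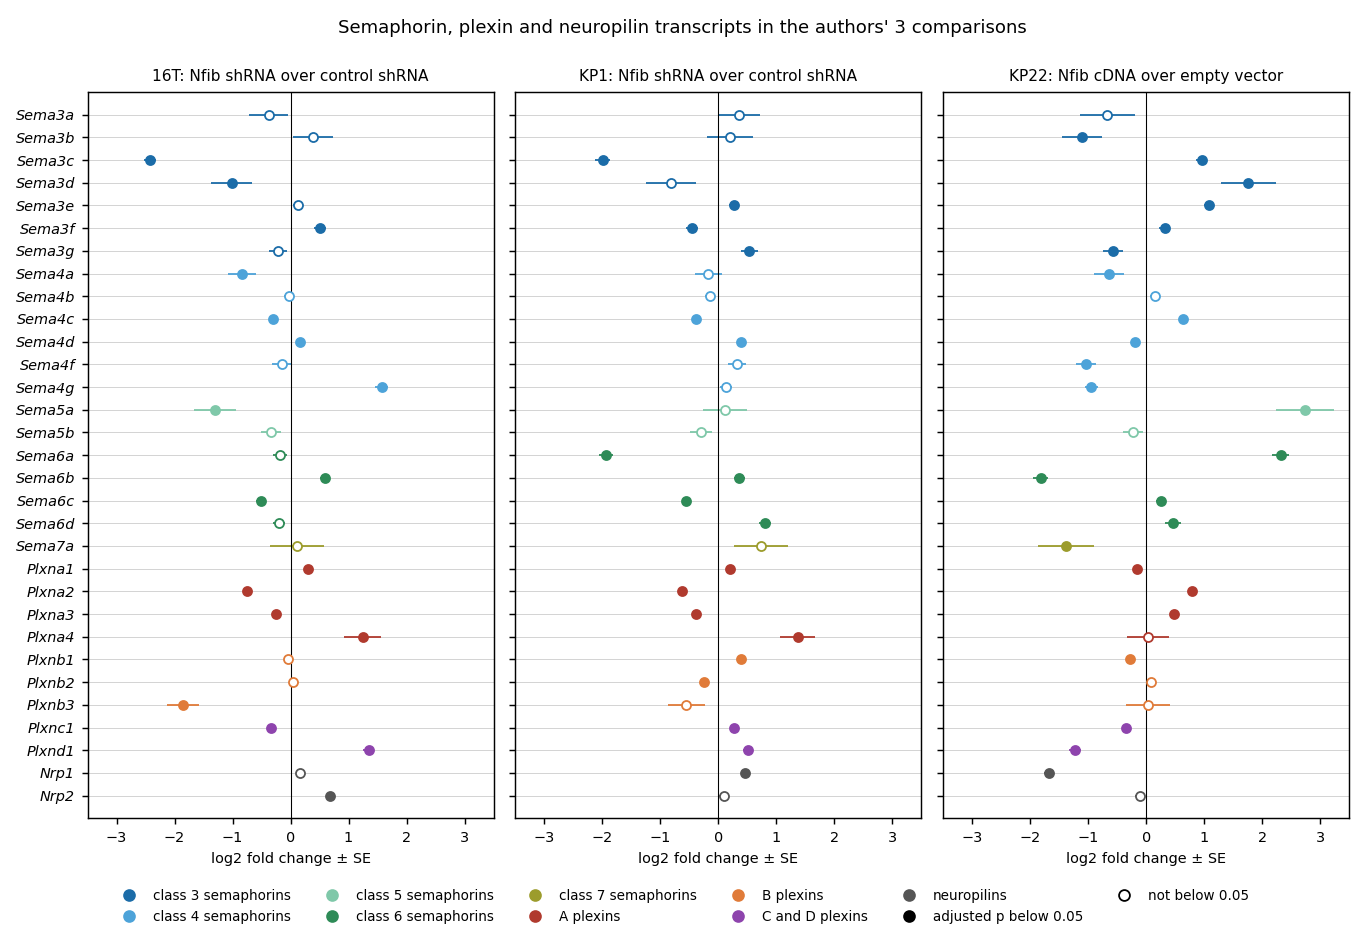
Log2 fold change ± SE of the 31 members in each comparison, by class; filled points have an adjusted p below 0.05 and open points do not. Sema3c lies farthest left in 16T and KP1 (-2.42 and -2.00), while in KP22 Sema5a and Sema6a lie farthest right (2.73 and 2.32) and Sema6b farthest left (-1.82).

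Among the secreted ligands of class 3, Sema3c carried the largest change. Sema3c encodes a semaphorin that signals through neuropilins and is needed for septation of the cardiac outflow tract in mice. The authors' deposited table gave -2.42 ± 0.10 for Sema3c in 16T (adjusted p = 8.55e-121), which is 18.7% of the control level. It also gave -2.00 ± 0.13 in KP1 (adjusted p = 1.35e-53), per the authors' deposited table. With Nfib cDNA in KP22, Sema3c rose by 0.95 ± 0.091 (adjusted p = 5.26e-24), or 1.93-fold, in the authors' deposited table. It ranked 11th by size among the 3667 genes that fell in 16T and 64th among the 2844 that fell in KP1. Sema3d, a close relative that is far less abundant here, fell in 16T (-1.02 ± 0.35) and rose in KP22 (1.76 ± 0.48), and had -0.82 ± 0.42 in KP1 (adjusted p = 0.131) in the authors' deposited table. Its call in 16T was lost when the normal distribution was replaced by a t with 6 degrees of freedom.

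The other class 3 genes did not share that pattern. Sema3e, whose product binds plexin D1 without a neuropilin, rose in KP22 by 1.08 ± 0.085 (2.12-fold) and also rose in KP1 by 0.27 ± 0.09 in the authors' deposited table. Its value in 16T was 0.13 ± 0.081 (adjusted p = 0.214) in the authors' deposited table. Sema3f, a ligand of neuropilin 2, rose in 16T (0.50 ± 0.10), fell in KP1 (-0.45 ± 0.10) and rose in KP22 (0.32 ± 0.096) in the authors' deposited table. Sema3g rose in KP1 (0.53 ± 0.15) and fell in KP22 (-0.58 ± 0.18) in the authors' deposited table. Sema3b fell in KP22 (-1.11 ± 0.35, adjusted p = 0.00532) and had 0.38 ± 0.34 in 16T and 0.19 ± 0.40 in KP1 in the authors' deposited table. Sema3a, the classical repellent of sensory axons and a ligand of neuropilin 1, had values between -0.67 and 0.36 with SEs of 0.34 to 0.48 in the authors' deposited table, so its 95% intervals reach past a size of 1. Under the t distribution, the KP1 calls of Sema3e and Sema3g and the KP22 calls of Sema3b, Sema3f and Sema3g were lost.

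In class 4, whose members span the membrane and mostly bind B plexins, 2 members had a called change of size 1 or more, Sema4g in 16T and Sema4f in KP22. Sema4g rose in 16T by 1.57 ± 0.11, or 2.97-fold (adjusted p = 5.23e-44), in the authors' deposited table. In KP1 it had 0.13 ± 0.105 (adjusted p = 0.399), and in KP22 it fell by 0.95 ± 0.12, per the authors' deposited table. Sema4c, the most abundant semaphorin per kb and a ligand of plexin B2, fell in 16T (-0.31 ± 0.07) and KP1 (-0.39 ± 0.07) and rose in KP22 (0.64 ± 0.07) in the authors' deposited table. Sema4d, a ligand of plexin B1, had the reverse signs: it rose by 0.16 ± 0.066 in 16T and by 0.40 ± 0.066 in KP1 and fell by 0.20 ± 0.066 in KP22 in the authors' deposited table. Its calls in 16T and KP22 were lost under the t distribution, and the one in 16T also without a filter on the mean. Sema4f fell in KP22 to 48.7% of the level with empty vector (-1.04 ± 0.18), and had -0.15 ± 0.17 in 16T and 0.31 ± 0.16 in KP1 in the authors' deposited table. Sema4a fell in 16T (-0.84 ± 0.24) and in KP22 (-0.64 ± 0.26, a call that the t distribution ended) in the authors' deposited table. Sema4b stayed within 0.15 of 0 in each comparison, with 95% intervals of -0.19 to 0.14 in 16T, -0.31 to 0.02 in KP1 and -0.02 to 0.32 in KP22, computed from the authors' deposited table.

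Classes 5 and 6 held the largest rises among the members with Nfib cDNA, in Sema5a and Sema6a. Sema5a, which carries thrombospondin repeats, rose in KP22 by 2.73 ± 0.50 (6.65-fold, adjusted p = 4.91e-07) and fell in 16T by 1.30 ± 0.37 in the authors' deposited table. It is also the least abundant member per kb, and in KP1 it had 0.11 ± 0.38 (adjusted p = 0.871) in the authors' deposited table. Its relative Sema5b had values between -0.33 and -0.23 with SEs of 0.17 to 0.19 in the authors' deposited table, and no call. Sema6a, a ligand of plexins A2 and A4 in the developing nervous system, rose in KP22 by 2.32 ± 0.15 (4.98-fold, adjusted p = 1.92e-55) in the authors' deposited table. In KP1 it fell by 1.94 ± 0.12 (adjusted p = 7.13e-53), whereas in 16T it had -0.19 ± 0.12 (adjusted p = 0.217), per the authors' deposited table.

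Sema6b moved the other way. It rose in 16T (0.59 ± 0.092) and KP1 (0.36 ± 0.092) in the authors' deposited table. In KP22 it fell by 1.82 ± 0.13 to 28.3% of the level with empty vector (adjusted p = 3.96e-45), the largest fall of any member in KP22 in the authors' deposited table. Sema6c fell in 16T (-0.52 ± 0.076) and KP1 (-0.55 ± 0.074) and rose in KP22 (0.25 ± 0.082) in the authors' deposited table; the last call was lost with the t distribution. Sema6d, a ligand of plexin A1, rose in KP1 (0.80 ± 0.10) and KP22 (0.46 ± 0.14) and had -0.21 ± 0.10 in 16T (adjusted p = 0.0976) in the authors' deposited table. Sema7a, the single lipid-anchored member and a ligand of plexin C1 and of integrins, fell in KP22 (-1.38 ± 0.49) in the authors' deposited table, a call that the t distribution ended. Its mean count was the lowest of all members, and its values in 16T and KP1 were 0.11 ± 0.46 and 0.73 ± 0.47 in the authors' deposited table.

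The A plexins, receptors for class 3 and class 6 semaphorins, were called in both knockdown lines in all 4 cases, with the same sign in each line. Beside them, 45.3% of all tested genes were called in 16T and 37.2% in KP1. The share of all genes called in both lines with the same sign was not computed, so this is not shown to be particular to the A plexins. The A plexins' differences between the lines, from -0.12 to 0.13, did not pass the test, with SEs of 0.07 to 0.44. Plxna2 fell to 59.6% of control in 16T (-0.75 ± 0.05, adjusted p = 1.25e-48) and to 64.8% in KP1 (-0.63 ± 0.049) in the authors' deposited table. In KP22 it rose by 0.78 ± 0.05, or 1.72-fold (adjusted p = 8.05e-54), per the authors' deposited table. Plxna3 had the same signs at smaller size, -0.25 ± 0.051 in 16T, -0.38 ± 0.051 in KP1 and 0.47 ± 0.05 for KP22 in the authors' deposited table. Plxna1 had the reverse signs, 0.30 ± 0.054 in 16T, 0.20 ± 0.053 in KP1 and -0.16 ± 0.053 for KP22 in the authors' deposited table, the last of which did not pass under the t distribution. Plxna4, a rare transcript here, rose by 1.24 ± 0.32 in 16T and by 1.36 ± 0.30 in KP1 in the authors' deposited table. In KP22 Plxna4 had 0.02 ± 0.36, with a 95% interval from -0.69 to 0.74, computed from the authors' deposited table.

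The B plexins, receptors of class 4 semaphorins, differed between the knockdown lines in all 3 genes, Plxnb3 not under the t distribution. Plxnb1 rose in KP1 (0.39 ± 0.039) and fell in KP22 (-0.29 ± 0.038), and had -0.04 ± 0.039 in 16T (adjusted p = 0.47) in the authors' deposited table. Plxnb2, the most abundant member, fell in KP1 by 0.25 ± 0.035 and had values of 0.04 ± 0.035 in 16T and 0.08 ± 0.034 in KP22, per the authors' deposited table. Plxnb3 fell in 16T to 27.5% of the control level (-1.86 ± 0.28, adjusted p = 1.48e-10), while KP1 had -0.55 ± 0.31 and KP22 0.03 ± 0.38 in the authors' deposited table. Of the 2 remaining plexins, Plxnc1, the receptor of Sema7a, fell in 16T (-0.34 ± 0.071), rose in KP1 (0.26 ± 0.07) and fell in KP22 (-0.36 ± 0.071) in the authors' deposited table.

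Plxnd1, the receptor of Sema3e that is prominent in blood vessels, rose in 16T by 1.35 ± 0.089, or 2.54-fold (adjusted p = 5.47e-50), in the authors' deposited table. It rose by 0.50 ± 0.086 in KP1 and fell in KP22 by 1.23 ± 0.10 to 42.6% of the level with empty vector (adjusted p = 6.55e-33), per the authors' deposited table. Nrp1, a co-receptor for class 3 semaphorins and for VEGF-A, fell in KP22 to 31.2% of the level with empty vector (-1.68 ± 0.078, adjusted p = 2.16e-101) in the authors' deposited table. It rose in KP1 (0.46 ± 0.076) and had 0.17 ± 0.078 in 16T (adjusted p = 0.0668) in the authors' deposited table. Another 560 bp of Nrp1, kept by the authors under a joined name, had -1.08 ± 0.28 in KP22 (adjusted p = 0.000465) in the authors' deposited table. Nrp2, which prefers Sema3f, rose in 16T by 0.68 ± 0.073 (1.60-fold), and had 0.09 ± 0.08 in KP1 and -0.11 ± 0.077 with the cDNA in KP22, per the authors' deposited table.

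As Plxnd1 and Nrp1 are also endothelial genes, the endothelial markers are given beside them. Of 8 looked up, 1 rose and 0 fell of 5 tested in 16T, 2 rose and 0 fell of 5 tested in KP1, and 0 rose and 3 fell of 6 tested in KP22. The genes called were Erg (16T, KP1 and KP22), Vwf (KP1 and KP22) and Egfl7 (KP22). In 16T, KP1 and KP22, Erg had 0.68 ± 0.18, 0.44 ± 0.17 and -0.72 ± 0.26 in the authors' deposited table. In that order Vwf had 0.15 ± 0.097, 1.34 ± 0.16 and -0.75 ± 0.075, and Egfl7 0.45 ± 0.32, -0.60 ± 0.33 and -1.20 ± 0.33, per the authors' deposited table. Without a call, Tek had -0.39 ± 0.29, -0.55 ± 0.38 and -0.55 ± 0.45, and Pecam1 -0.21 ± 0.48, 0.16 ± 0.48 and 0.70 ± 0.52, per the authors' deposited table. The mean counts of the 8 markers were 2353 for Vwf, 307 for Erg, 183 for Tek, 117 for Egfl7, 17.9 for Pecam1, 2.11 for Cdh5, 0.215 for Tie1 and 0 for Emcn in the authors' deposited table. Beside the calls of these markers, 45.3% of all tested genes were called in 16T, 37.2% in KP1 and 38.4% in KP22. The part of the endothelial markers' shifts in the values of Plxnd1 and Nrp1 was not tested.

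In 9 of the 31 members all 3 comparisons were called, with 1 sign in both knockdown lines and the other sign in KP22. Among all genes tested in the 3 comparisons 10.1% had such a pattern, and 10.8% among those with a mean at least that of the lowest member. Sema3c, Sema4c, Sema6c, Plxna2 and Plxna3 fell with the Nfib shRNA in both lines and rose with Nfib cDNA, beside 5.33% of all genes. Sema4d, Sema6b, Plxna1 and Plxnd1 rose with the shRNA in both lines and fell with the cDNA, beside 4.76% of all genes. Under the t distribution 6 of the 9 kept the pattern, and Plxna1, Sema4d and Sema6c did not. The share of all genes was then 5.6%. After recentring on the median gene 10 members had it, Nrp1 among them, beside 9.65% of all genes. The other 2 members called in all 3 comparisons were Plxnc1 and Sema3f, each with opposite signs in 16T and KP1.

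One value per gene was computed from the authors' effects and SEs by averaging over the lines, with the knockdown signs turned so that positive means higher with more Nfib. It was called for 25 members, 11 above and 14 below 0, where 52.9% of all genes with a mean of at least 10 were called, by a normal test with Benjamini-Hochberg adjustment over these genes. The highest were Sema3c at 1.79 ± 0.062, Sema6a at 1.48 ± 0.075, Sema5a at 1.31 ± 0.24, Sema3d at 1.20 ± 0.24 and Plxnb3 at 0.81 ± 0.19, and for Sema5a, Sema6a, Sema3d and Plxnb3 not every line had a call. The lowest were Plxnd1 at -1.03 ± 0.053, Sema6b at -0.93 ± 0.061, Sema4g at -0.88 ± 0.064, Plxna4 at -0.86 ± 0.19 and Nrp1 at -0.77 ± 0.044, and for Sema4g, Plxna4 and Nrp1 not every line had a call. The mean of the knockdown effects differed from the KP22 effect in 26 members, 14 above and 12 below 0, beside 52.2% of all genes with a mean of at least 10. Under the t distribution each of these counts was 22. The shares of all genes called were also lower under the t, and they are given with the processing alternatives at the end. Sema6a had the greatest such difference (-3.38 ± 0.17), followed by Sema5a (-3.33 ± 0.57), Sema3c (-3.16 ± 0.12) and Sema3d (-2.68 ± 0.55).

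**Figure D4:**
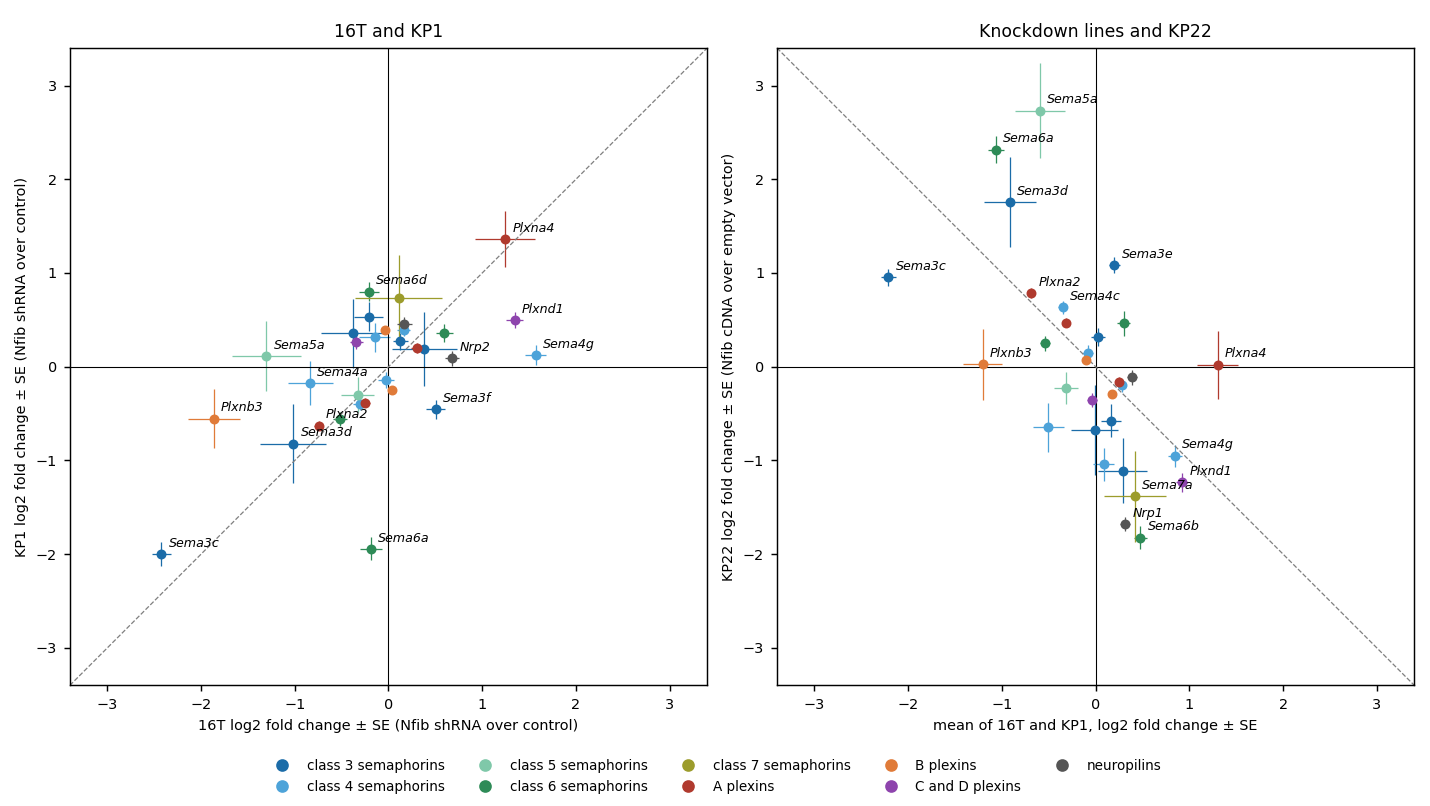
Left, log2 fold change ± SE in KP1 against that in 16T (Nfib shRNA over control shRNA), with the line of equal change dashed; right, the KP22 value (Nfib cDNA over empty vector) against the mean of both knockdown lines, with the line of equal and opposite change dashed. Sema6a lies far below the dashed line on the left (-0.19 in 16T, -1.94 in KP1), and Sema3c and Plxnd1 lie on opposite sides of both axes on the right.

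Start regions are shown for those of the 9 genes with opposite signs that have a single listed start, since these genes were called in all 3 lines. RefSeq's table for GRCm38.p6, the build mm10, held 37 start regions for 26 of the 31 members. Of the 9 genes, 4 have a single listed start, 4 have several and Plxna1 is not in the table. The 250 bases before the start are given 5′ to 3′ on the gene's strand for the 4 with a single start, with the letters TTGGC or their reverse complement GCCAA, 1 side of the palindrome bound by NFI proteins, in capitals.
Sema3c (fell with shRNA, rose with cDNA), chr5:17574566-17574815, plus strand: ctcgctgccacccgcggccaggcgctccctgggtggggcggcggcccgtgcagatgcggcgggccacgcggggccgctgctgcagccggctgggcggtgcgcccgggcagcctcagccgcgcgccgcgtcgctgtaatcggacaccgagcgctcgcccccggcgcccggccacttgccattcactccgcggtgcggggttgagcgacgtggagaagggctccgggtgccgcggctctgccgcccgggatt
Plxna2 (fell with shRNA, rose with cDNA), chr1:194619579-194619828, plus strand: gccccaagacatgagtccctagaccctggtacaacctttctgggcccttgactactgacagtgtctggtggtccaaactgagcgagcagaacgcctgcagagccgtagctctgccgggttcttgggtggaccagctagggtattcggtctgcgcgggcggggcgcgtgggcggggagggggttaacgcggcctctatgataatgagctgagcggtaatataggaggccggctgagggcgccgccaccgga
Plxna3 (fell with shRNA, rose with cDNA), chrX:74328816-74329065, plus strand: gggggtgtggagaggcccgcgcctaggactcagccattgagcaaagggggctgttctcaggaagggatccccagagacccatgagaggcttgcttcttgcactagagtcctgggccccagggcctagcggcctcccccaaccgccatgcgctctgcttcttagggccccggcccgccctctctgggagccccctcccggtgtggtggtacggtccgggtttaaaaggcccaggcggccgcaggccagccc
Plxnd1 (rose with shRNA, fell with cDNA), chr6:115995006-115995255, minus strand: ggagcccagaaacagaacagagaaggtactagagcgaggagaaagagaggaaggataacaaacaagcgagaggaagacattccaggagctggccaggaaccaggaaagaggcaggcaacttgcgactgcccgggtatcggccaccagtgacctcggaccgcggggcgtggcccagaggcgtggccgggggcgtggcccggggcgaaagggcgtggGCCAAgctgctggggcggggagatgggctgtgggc
Among these 4 windows only that of Plxnd1 holds these letters, beginning 35 bases before the start.

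Both strands of the whole 300 bases (250 before and 50 after the start) were searched in every listed region. TTGGC was found in 10 of the members' 37 regions and in 46.7% of all 32851 regions in the table. The full palindrome, TTGGC and GCCAA with 5 bases between them, was found in 0 of the members' regions and in 12 of all regions. Of the genes that fell with the shRNA and rose with the cDNA, 1 of 5 in the table had TTGGC in a start region (Sema4c), and of those with the reverse signs 3 of 3 (Plxnd1, Sema4d and Sema6b). Among the remaining members in the table it was 5 of 18. Sema4d has 3 listed regions, 1 of them with the letters, and Sema6b has 2. Among all genes listed there, 50.4% had a match in at least 1 region, 47.1% of those with 1 region, 65.6% of those with 2 and 77.5% of those with 3. None of these matches in members overlapped a CCAAT box, which shares letters with TTGGC on the other strand. A match of so few letters is a description of the window, and binding was not measured here.

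Members also differed between the knockdown lines. The log2 fold change in 16T minus that in KP1 was called for 15 members, 6 above and 9 below 0, beside 29.4% of all genes with a mean of at least 10, by the normal test with Benjamini-Hochberg adjustment. Under the t distribution 9 were called, and Nrp1, Plxnb3, Sema3c, Sema3g, Sema4d and Sema5a were not. The share of all genes called was lower under the t too, and it is given with the processing alternatives at the end. Recentring on the median gene also ended the calls of Nrp1, Sema3c and Sema4d in this contrast. The widest gaps were in Sema6a (1.76 ± 0.17), which fell in KP1 alone of the knockdown lines, and in Sema4g (1.44 ± 0.15), which rose in 16T alone of the knockdown lines. Sema3f (0.96 ± 0.14) and Plxnc1 (-0.60 ± 0.10) were called with opposite signs in the lines. Among all genes tested in the 3 comparisons, 4.54% were called with opposite signs in 16T and KP1. Both lines carried an shRNA of the same name, and Nfib was 47.2% of the control level in 16T and 40.0% in KP1.

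Ligands and receptors known to bind each other were set side by side in 11 pairs, chosen from textbook knowledge after the values were known. How many pairs share a sign depends on which pairs are listed, so examples of both kinds are given and no count. Sema6a and its receptor Plxna2 both fell in KP1 (-1.94 and -0.63) and both rose in KP22 (2.32 and 0.78) in the authors' deposited table. Sema4d and Plxnb1 both rose in KP1 (0.40 and 0.39) and both fell in KP22 (-0.20 and -0.29) in the authors' deposited table. Sema6b and Plxna4 both rose in the knockdown lines, by 0.59 and 1.24 in 16T and by 0.36 and 1.36 in KP1, in the authors' deposited table. Opposite signs in KP22 were found for Sema3e and Plxnd1 (1.08 and -1.23) and for Sema6d and Plxna1 (0.46 and -0.16) in the authors' deposited table. Partners outside the 11 pairs also had opposite signs, such as Sema6a and Plxna4 in KP1 (-1.94 and 1.36), per the authors' deposited table. Sema3c and Nrp1 had opposite signs in KP1 (-2.00 and 0.46) and in KP22 (0.95 and -1.68), per the authors' deposited table.

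Several members lie near each other on mm10. Sema3d (12383166 to 12588943), Sema3a (13396784 to 13603485), Sema3e (14025276 to 14256689) and Sema3c (17574816 to 17730267) follow each other on chromosome 5. The first 3 are 808 and 422 kb apart and Sema3c lies 3318 kb further on. In KP22 the values along this order were 1.76, -0.67, 1.08 and 0.95, and in 16T they were -1.02, -0.38, 0.13 and -2.42, in the authors' deposited table. On chromosome 9, Sema3b (107598115 to 107609241) and Sema3f (107681502 to 107710475) are 72.3 kb apart. With Nfib cDNA Sema3b fell (-1.11 ± 0.35) while Sema3f rose (0.32 ± 0.096) in the authors' deposited table.

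Beyond the members, genes that act with them were looked up in 3 lists. Of 25 co-receptors and other ligands of these receptors, 6 rose and 4 fell of 19 tested in 16T, 4 rose and 5 fell of 19 in KP1, and 5 rose and 8 fell of 23 in KP22. Their medians were 0.09, 0.00 and 0.07, against -0.05, -0.02 and 0.04 for all tested genes. The shares called were 52.6%, 47.4% and 56.5%, beside 45.3%, 37.2% and 38.4% of all tested genes. Vegfa, which encodes the neuropilin ligand VEGF-A, rose in 16T by 2.36 ± 0.077, fell in KP1 by 0.38 ± 0.074 and had -0.07 ± 0.081 in KP22, per the authors' deposited table. Kdr, the VEGF receptor that pairs with neuropilin 1, fell in all 3 comparisons (-1.48 ± 0.18 in 16T, -1.62 ± 0.21 in KP1, -1.76 ± 0.16 in KP22), per the authors' deposited table. Pgf, another ligand of neuropilin 1, rose in 16T (1.03 ± 0.20) and KP1 (1.28 ± 0.21) and fell in KP22 (-1.48 ± 0.19) in the authors' deposited table. In KP22 Itga1, an integrin subunit of a Sema7a receptor, rose by 2.08 ± 0.49, and it had -0.72 ± 0.38 in 16T and -0.79 ± 0.40 in KP1 with no call, in the authors' deposited table.

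Of 49 genes for cytoplasmic signalling below plexins, 17 rose and 14 fell of 47 tested in 16T, 13 rose and 14 fell of 47 in KP1, and 12 rose and 21 fell of 49 in KP22. Their median log2 fold changes were 0.06, 0.04 and -0.14. The shares called were 66.0%, 57.4% and 67.3%, beside 45.3%, 37.2% and 38.4% of all tested genes. The signalling genes are abundant, with a median mean count of 3845 against 1326 for all genes tested in 16T. Mical2, a flavoprotein that oxidizes actin, rose in 16T (1.25 ± 0.068) and KP1 (0.91 ± 0.064) and fell in KP22 (-0.68 ± 0.065) in the authors' deposited table. Tiam1, an exchange factor for Rac, fell in 16T by 1.18 ± 0.069 and in KP1 by 0.67 ± 0.068 and rose in KP22 by 1.06 ± 0.07 in the authors' deposited table. Dpysl4, of the collapsin response mediator family that carries the response to Sema3a, fell in 16T by 1.43 ± 0.06 and in KP1 by 0.52 ± 0.06 and rose in KP22 by 1.26 ± 0.068 in the authors' deposited table. The family was mixed in 16T, KP1 and KP22. Dpysl5 had -0.38, -0.28 and 0.29, and Dpysl3 had 0.10, -0.20 and 0.46, in the authors' deposited table. Crmp1 had -0.21, -0.10 and -0.14, and Dpysl2 had 0.06, 0.17 and -0.17, per the authors' deposited table. The gene of R-Ras, a GTPase that plexins inactivate, is Rras, and it rose in 16T by 1.70 ± 0.31, had 0.17 ± 0.30 in KP1 and fell in KP22 by 1.40 ± 0.32 in the authors' deposited table. Rnd3 fell in KP1 (-0.80 ± 0.24) and rose in KP22 (2.01 ± 0.36), with -0.25 ± 0.25 in 16T and no call there, in the authors' deposited table. Enah, a regulator of actin filaments, fell in KP22 (-2.66 ± 0.39) and had -0.15 ± 0.065 in 16T and -0.02 ± 0.064 in KP1, per the authors' deposited table. Sh3bp1, a Rac GTPase-activating protein linked to plexin D1, fell in KP22 by 1.76 ± 0.25 and rose in 16T (1.02 ± 0.22) and KP1 (0.55 ± 0.20), per the authors' deposited table.

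Of 8 proteases that process semaphorins, plexins or neuropilins, 4 rose and 0 fell of 7 tested in 16T, 4 rose and 2 fell of 7 in KP1, and 1 rose and 4 fell of 8 in KP22. Their medians were 0.75, 0.37 and -0.06. The shares called were 57.1%, 85.7% and 62.5%, beside 45.3%, 37.2% and 38.4% of all tested genes. Furin, the convertase that cleaves class 3 semaphorins, rose in 16T (0.86 ± 0.093) and KP1 (0.62 ± 0.094) and fell in KP22 (-1.19 ± 0.099) in the authors' deposited table. Adam10, a sheddase of cell surface proteins, rose in 16T (0.75 ± 0.046) and KP1 (0.40 ± 0.046) and fell in KP22 (-0.19 ± 0.047) in the authors' deposited table. Pcsk5, another convertase, rose by 1.95 ± 0.31 in 16T and by 1.97 ± 0.31 in KP1 and had 0.12 ± 0.35 in KP22, per the authors' deposited table. Other proteases had other signs. Adamts1 rose in 16T (0.90 ± 0.23) and fell in KP1 (-0.60 ± 0.24) and KP22 (-0.64 ± 0.25) in the authors' deposited table. Pcsk6 rose in KP1 (0.37 ± 0.13) and KP22 (1.03 ± 0.13), and Pcsk7 fell in KP22 (-0.47 ± 0.08), per the authors' deposited table.

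Parts of some members are counted elsewhere or overlap other genes. Joined names held 8 further features of members, with mean counts from 4.21 to 548 in the authors' deposited table. Of these, the 222 bp of Plxnb2 joined with a microRNA fell in KP1 (-0.37 ± 0.14), like the gene, but rose in 16T (0.34 ± 0.14), where the gene had no call, in the authors' deposited table. Sema6d had 269 bp under a joined name that rose in KP1 (1.05 ± 0.39), like the gene, in the authors' deposited table. In GENCODE M21, antisense transcripts overlap 10.7% of the exon length of Plxna1 and 9.61% of that of Sema4c, and less than 3% of that of Plxna4 and Plxnb1. The labels do not say whether strand was used in counting, so reads of these antisense transcripts cannot be told apart from those of the members.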

How the data were processed

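RNA was isolated by a Qiagen RNAeasy kit and made into Illumina TruSeq v2 libraries, per the labels' protocols. The submitters' processing notes name mm10 and the tools DESeq2, DESeq, TopHat and bedtools, without versions. The deposited table holds the authors' mean normalized count per feature, a signal averaged over the libraries. Per the file headers it also holds the authors' log2 fold changes and SEs, Wald scores, p-values and adjusted p-values, and their test for a change above 0.5. The other deposited file lists merged RefSeq exons, which gave lengths and positions.

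The design had foreseen results without values per sample. Of 28112 features, the 23226 with 1 gene name were used. Contrasts between comparisons were computed for the 15008 of these with a mean of at least 10, adding squared SEs as independent. Benjamini-Hochberg adjustment followed (Python 3.11.15, scipy 1.17.1). A run on simulated data drew its noise from the same SEs, so it checked the calculation and not whether the SEs are right. Counts per kb divide by the exon length under the single name. Depth per sample is unknown, and precision is that of the authors' SEs (0.034 to 0.505 for the members). In 16T the SE was 0.17 for Trem2 (mean 0.07) and 0.47 for Met (mean 26.4), so SEs did not grow steadily as counts fell. Whether the authors' fit shrank the fold changes of rare genes was not tested, so sizes may not compare between rare and abundant members.

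Members and lists were chosen with earlier results of these data known. Every member is named. List genes described for their change come from the 4 largest called changes of a list in at least 1 comparison. Values of the other collapsin response mediator genes and of endothelial markers without a call are given beside them. Not all genes with the 4 largest called changes are named, and their values in other comparisons may lie outside the largest 4. Alternatives changed the filter on the mean, the reference distribution, the centring and the size threshold.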

Additional observations from a re-analysis of the deposited data

Results flagged for a closer look

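For 15 members the effect of the Nfib shRNA differed between the lines by a test of the difference itself (log2 fold change in 16T minus that in KP1, normal test with Benjamini-Hochberg adjustment over 15008 genes). Among those 15008 genes 29.4% were called. The difference was above 0 for Sema6a (1.76), Sema4g (1.44), Sema3f (0.96), Plxnd1 (0.85), Nrp2 (0.59) and Plxnb2 (0.29). It was below 0 for Sema5a (-1.42), Plxnb3 (-1.31), Sema6d (-1.01), Sema3g (-0.75), Plxnc1 (-0.60), Plxnb1 (-0.43), Sema3c (-0.42), Nrp1 (-0.29) and Sema4d (-0.24). Sema3c, Sema4d and Plxnd1 had the same sign and a call in both lines and differed in size only. Plxnc1 and Sema3f were called with opposite signs. The lines differ in background and in how far Nfib fell, and the part of either in these differences was not tested. No other member was flagged, and samples could not be screened for outliers, as no values per sample were used.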

How the results depend on the processing

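Requiring a change above 0.5 by the authors' own test left 5 members called in 16T, 2 in KP1 and 10 in KP22, where 5.25%, 4.58% and 7.66% of all genes with that test were called. Requiring at least 1 on the log2 scale left 7, 3 and 10, beside 6.36%, 5.96% and 8.07% of all tested genes. Under a t with 6 degrees of freedom, the difference between 16T and KP1 was called in 9 members, and the calls in 16T, KP1 and KP22 numbered 16, 17 and 16. The counts of called members stayed within 1.5 times the reported ones under the other alternatives run: other filters on the mean, recentring and joined-name features added. Recentring took away the median over genes with a mean of at least 10, -0.05 in 16T, -0.02 in KP1 and 0.05 in KP22. It turned the sign of 4 values that had no call: Plxnb1 (0.013) and Sema4b (0.025) in 16T, and Plxna4 (-0.024) and Plxnb3 (-0.017) in KP22. It also brought Nrp1 (0.22) and Plxnb2 (0.088) past the threshold in 16T. Leaving out a replicate could not be run without values per sample. No paired analysis was possible because the files used give results of comparisons and no values for single replicates. Depth limits the rare members most: Sema7a, Sema5a, Sema3d, Sema3a and Plxna4 have mean counts under 100.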
